A study of Rattus norvegicus with 8 samples.

Results

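The hypoxia-inducible factors (HIF) and the enzymes that gate them by oxygen were followed in whole newborn rat lung as a set of 10 genes, out of 22037 genes that the array's annotation names. The set holds the alpha subunits Hif1a, Epas1 (which encodes HIF-2 alpha) and Hif3a, the partner subunits Arnt and Arnt2, the prolyl hydroxylases Egln1, Egln2 and Egln3, the asparaginyl hydroxylase Hif1an and the ubiquitin ligase subunit Vhl. Members were taken by gene symbol, through array rows annotated with exactly 1 gene, and each had 1 such row. A further row shared by Egln2 and a neighbouring gene was left out. All 10 passed the level filter and were tested among 15426 genes. RNA of 8 lungs was hybridised to 1-colour Affymetrix arrays, 1 lung to an array. By the labels, the dams of 4 pups ate chow lacking vitamin D (0 IU per kg), and the dams of the other 4 ate chow with an adequate amount (1000 IU per kg). Deficient dams were mated with vitamin D-replete males once their serum 25-hydroxyvitamin D was under 10 ng/ml. Dams were bought at 4 weeks of age and tested at 8 weeks. Both groups shared 0.5% dietary calcium and 0.4% phosphorus, UV-free housing, the altitude of Denver with its lowered inspired oxygen, and spontaneous delivery at term. Pups are labelled as day 0, while the growth protocol places harvest on day of life 1. Litters are not given for the pups, so p-values cover the spread among these 8 lungs alone, which may be partly technical.

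In well-oxygenated cells the EGLN enzymes hydroxylate prolines of the HIF alpha subunits, using oxygen, iron and 2-oxoglutarate, and the VHL complex then marks the subunits for degradation. When oxygen falls, the alpha subunits persist, pair with ARNT and switch on genes of glycolysis, glucose uptake and blood vessel growth. Egln1 and Egln3 are themselves HIF targets, which closes a feedback loop. The alpha subunits are controlled largely at the protein level, and the arrays measured RNA only.

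The direction of every difference below follows the sample labels, but a second source names the groups the other way round. In the authors' deposited table of their comparison, all 8 columns held the values of the same-numbered lung of the other group. Egln3, Hif3a, Egln1 and Hif1a appear there as 10.1, 2.57, 1.40 and 1.34 times higher in the columns named for deficiency, the opposite direction by label. Which of the namings is correct could not be settled here. Groups are therefore written as labelled deficient and labelled adequate, and single lungs as deficient 1 to 4 and adequate 1 to 4.

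Array medians lay between 5.53 and 5.68 on the log2 scale. The labelled tissue was borne out by Sftpc, the alveolar type 2 cell surfactant gene, at a log2 signal of 19.86 ± 0.02 (SD, n = 4) in labelled deficient and 19.87 ± 0.03 (SD, n = 4) in labelled adequate. The highest value of any row was 19.93, so a group difference of Sftpc could be hidden near the top of the scale. Of the lung epithelial markers, 8 of 8 lay above the level filter in both groups, a filter that 15426 of 22037 genes passed. These markers also moved with the groups: 4 of the 8 were lower in labelled deficient and 0 higher, with a median log2 difference of -0.37, and their summed log2 signal was 20.95 to 20.98 in labelled deficient and 21.08 to 21.15 in labelled adequate. The 4 were Nkx2-1, a lung epithelial transcription factor gene (1.80-fold), Foxj1, which marks ciliated cells (1.79-fold), Ager, a type 1 cell marker (1.34-fold), and the surfactant gene Sftpb (1.30-fold). Lungs stood apart in Y-linked and neutrophil signal. The mean log2 signal of 6 Y-linked rows, taken as those whose identifiers place them on chromosome Y, was 5.09 to 5.11 in the lungs labelled deficient, against 9.38, 9.36, 6.43 and 5.79 in adequate 1 to 4. A further row annotated as Uty is placed on the X chromosome by its identifier and was not used in the mean; it was high in all lungs, at 12.33 to 12.81 in labelled deficient and 11.65 to 12.69 in labelled adequate. In the mean, adequate 1 and 2 were high, adequate 3 and 4 were in between, and the groups did not overlap. The summed signal of 14 neutrophil genes ranged from 10.23 to 10.80 (log2) in labelled deficient and from 14.11 to 15.04 in labelled adequate, with 5 and 3 of the 14 below the level filter by group mean. Summed macrophage and monocyte markers ranged from 14.78 to 14.92 in labelled deficient and from 15.00 to 15.51 in labelled adequate, with 7 of 12 lower and 1 higher. Most of that sum was Lyz2, at 14.46 to 14.60 in labelled deficient and 14.49 to 15.24 in labelled adequate. Lyz2 itself overlapped between the groups and was not called (adjusted p = 0.299). The part of any of these signals in the differences below was not tested. A fit with Y-linked signal as a covariate is given below, but it cannot separate that signal from the group. The signal hardly varied in labelled deficient and did not overlap labelled adequate, so its slope rests almost wholly on the 4 lungs labelled adequate. Pup sex is not labelled.

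Of the 10 genes, 5 were lower in the lungs labelled deficient at an adjusted p under 0.05 (limma, Benjamini-Hochberg over all genes tested) and 0 were higher. Over all genes tested, 13.7% were called lower and 8.21% higher in labelled deficient. Egln3 differed by 10.1-fold and Hif3a by 2.60-fold, while Egln1, Hif1a and Vhl differed by 1.40-fold, 1.34-fold and 1.27-fold. Epas1, Arnt, Arnt2, Egln2 and Hif1an did not pass. Of the 10, the groups did not overlap for the 5 called genes, each lower in labelled deficient. Over all genes tested, that held for 16.7% in that direction and 28.0% in either. Of the 10, 2 were called and at least 2-fold lower, as were 1.74% of all genes. The median log2 difference (labelled deficient minus labelled adequate) was -0.33 over the 10 genes and -0.02 over all genes. With the Y-linked signal as a covariate, or with the replicate number as a block, 3 of the 10 were called, namely Egln1, Egln3 and Hif3a. In whole lung, fewer cells of a type and less RNA per cell cannot be told apart.

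**Figure D1:**
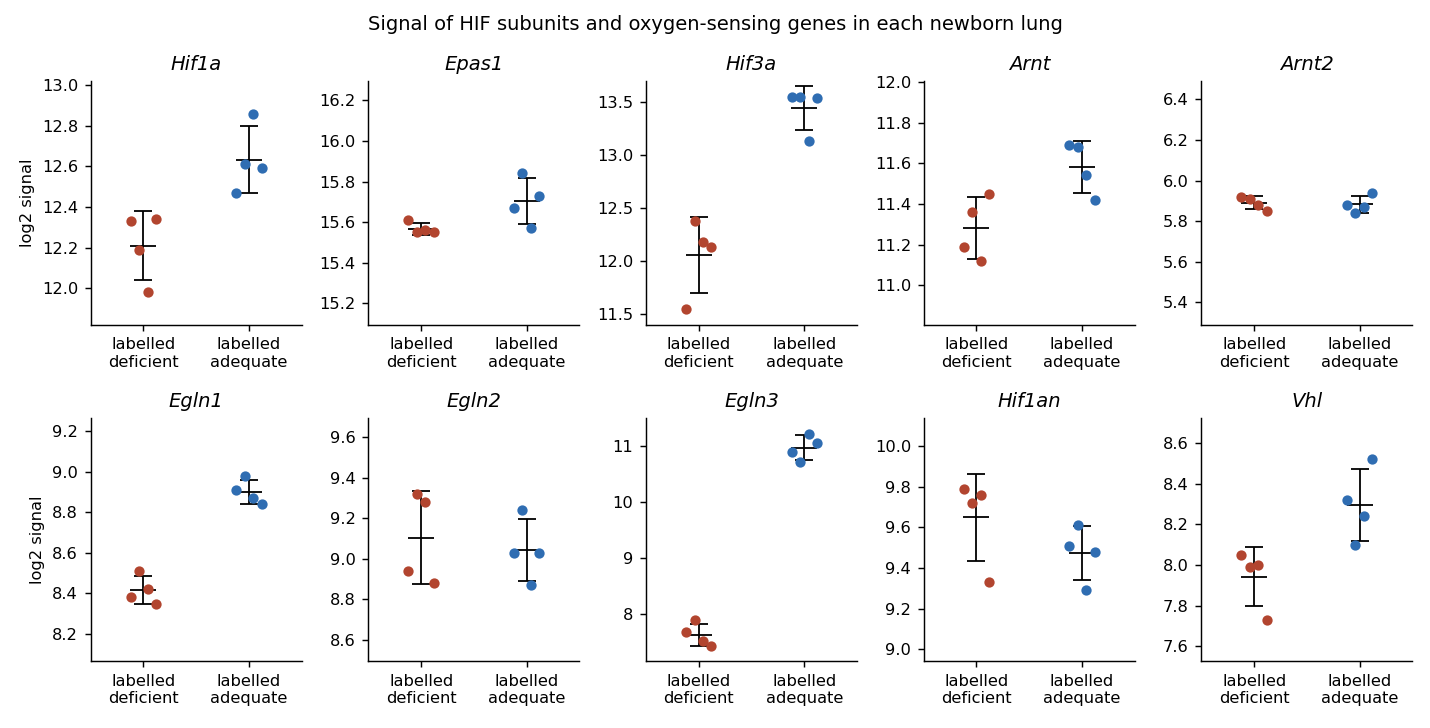
Log2 signal (y axis, a separate range in each panel) of the 10 genes in the 4 lungs labelled deficient (red, left) and the 4 labelled adequate (blue, right), with each lung as a point, the group mean as a horizontal line and the SD as a bar. The groups are separate for Hif1a, Hif3a, Egln1, Egln3 and Vhl and overlap for the other 5 genes.

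Among the alpha subunits, Hif3a showed the largest difference. Hif3a encodes a family of splice forms, several of which lack the activation domain of the other alpha subunits and can hold HIF activity down. Its log2 signals were 11.55, 12.38, 12.18 and 12.13 in deficient 1 to 4, against 13.55, 13.55, 13.13 and 13.54 in adequate 1 to 4. All lungs labelled deficient lay below all labelled adequate, with a gap of 0.744 between the nearest lungs. Deficient 1 was the lowest of the 8, and adequate 3 stood below the other lungs of its group. The log2 difference was -1.38 (SE 0.18, 95% interval -1.78 to -0.98, adjusted p = 0.00137), and it ranged from -1.49 to -1.21 as each lung was left out.

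Hif1a, the broadly expressed alpha subunit that drives much of the glycolytic response, read 12.33, 12.19, 11.98 and 12.34 in deficient 1 to 4, against 12.47, 12.61, 12.86 and 12.59 in adequate 1 to 4. The groups did not overlap, but the nearest lungs were only 0.133 apart. The log2 difference was -0.42 (SE 0.12, 95% interval -0.69 to -0.16, adjusted p = 0.0327). Hif1a did not pass without deficient 2 or 3 or without adequate 2, 3 or 4 (adjusted p = 0.0618 to 0.0813). It also missed the threshold with the Y-linked covariate (adjusted p = 0.0716), with the replicate block (adjusted p = 0.119) and with arrays centred on their medians (adjusted p = 0.0755).

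Epas1 is the alpha subunit known for its expression in lung endothelium and type 2 cells, and in the mouse it is needed for surfactant production at birth. Its log2 signals were 15.61, 15.55, 15.56 and 15.55 in deficient 1 to 4, against 15.67, 15.84, 15.57 and 15.73 in adequate 1 to 4. Adequate 3 lay within the range of the lungs labelled deficient, so the groups overlapped. The log2 difference of -0.14 did not pass (SE 0.09, 95% interval -0.33 to 0.06, adjusted p = 0.283). Summed endothelial markers ranged from 17.22 to 17.55 (log2) in labelled deficient and from 17.01 to 17.28 in labelled adequate. Of those 12 markers 1 was called, Cdh5, the endothelial cadherin gene, at 1.45-fold higher in labelled deficient, and Pecam1 did not pass (log2 difference 0.10, adjusted p = 0.459).

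Both partner subunits missed the threshold. Arnt, the constitutive partner of all alpha subunits, had log2 signals of 11.19, 11.36, 11.12 and 11.45 in deficient 1 to 4, against 11.69, 11.68, 11.54 and 11.42 in adequate 1 to 4. Deficient 4 lay above adequate 4, and no other pair of lungs crossed. The log2 difference was -0.30 (SE 0.11, 95% interval -0.55 to -0.06) and did not pass (adjusted p = 0.0742), although it did without deficient 4 (adjusted p = 0.0409) and with array weights (adjusted p = 0.0385). It was -0.13 with the Y-linked covariate (adjusted p = 0.604) and -0.20 with arrays centred on their medians (adjusted p = 0.252). Arnt2, a paralogue known mainly from neurons and kidney, read near the bottom of the tested range, from 5.85 to 5.92 in labelled deficient and from 5.84 to 5.94 in labelled adequate. Antigenomic background rows had array medians of 3.37 to 3.54. The difference of Arnt2 had a 95% interval of -0.12 to 0.13 on the log2 scale.

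Egln3, also called PHD3, is the prolyl hydroxylase most strongly induced by hypoxia and is known to be expressed in neutrophils. Its log2 signals were 7.68, 7.89, 7.52 and 7.44 in deficient 1 to 4, against 10.89, 10.71, 11.22 and 11.06 in adequate 1 to 4. The nearest lungs of the 2 groups were 2.82 apart, more than the whole range within either group. The log2 difference was -3.34 (SE 0.14, 95% interval -3.64 to -3.03, adjusted p = 5.04e-06). By unadjusted p, Egln3 ranked 1 of the 15426 genes tested, and 17 genes had a larger difference toward lower signal in labelled deficient. Leaving out each lung in turn gave -3.42 to -3.26.

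Egln1, or PHD2, is regarded as the main prolyl hydroxylase setting HIF-1 alpha levels in normal oxygen. It read 8.38, 8.51, 8.42 and 8.35 in deficient 1 to 4, against 8.91, 8.98, 8.87 and 8.84 in adequate 1 to 4. The difference was small but the spread within groups was smaller, with SDs of 0.07 and 0.06. The log2 difference was -0.49 (SE 0.08, 95% interval -0.66 to -0.31, adjusted p = 0.00338), and Egln1 passed with any 1 lung left out. A pseudogene copy, Egln1-ps2, has a row of its own, with a log2 difference of 0.18 that missed the threshold (SE 0.21, adjusted p = 0.565). Whether the probes of the 2 rows fully separate the copies was not tested.

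Egln2, or PHD1, whose expression is not known to be induced by hypoxia, read 8.94, 9.32, 9.28 and 8.88 in deficient 1 to 4, against 9.03, 9.24, 8.87 and 9.03 in adequate 1 to 4. The groups overlapped over almost their whole range. The log2 difference was 0.06 (SE 0.13, adjusted p = 0.759), with a 95% interval of -0.22 to 0.35. Hif1an encodes factor inhibiting HIF, which hydroxylates an asparagine of the alpha subunits and blocks their binding to the coactivators p300 and CBP. Its log2 signals were 9.79, 9.72, 9.76 and 9.33 in deficient 1 to 4, against 9.51, 9.61, 9.29 and 9.48 in adequate 1 to 4. Deficient 4 lay apart from the other lungs of its group and within the range of labelled adequate. The log2 difference of Hif1an was 0.18 (SE 0.12, 95% interval -0.10 to 0.45) and missed the threshold (adjusted p = 0.317).

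Vhl, the substrate-recognition subunit of the ligase, read 8.05, 7.99, 8.00 and 7.73 in deficient 1 to 4, against 8.32, 8.10, 8.24 and 8.52 in adequate 1 to 4. The groups were separated by 0.044, less than the SD of either. The log2 difference of -0.35 (SE 0.11, 95% interval -0.60 to -0.10) passed only narrowly (adjusted p = 0.0494). Vhl missed the threshold in 14 of the 21 alternative analyses, 7 of them with 1 lung left out. Among the fits without 1 lung it passed only without adequate 2 (adjusted p = 0.0371). In 1 of the 21, an exact permutation test, it passed on an unadjusted p of 0.0286, which follows from the separation of the groups alone.

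**Figure D2:**
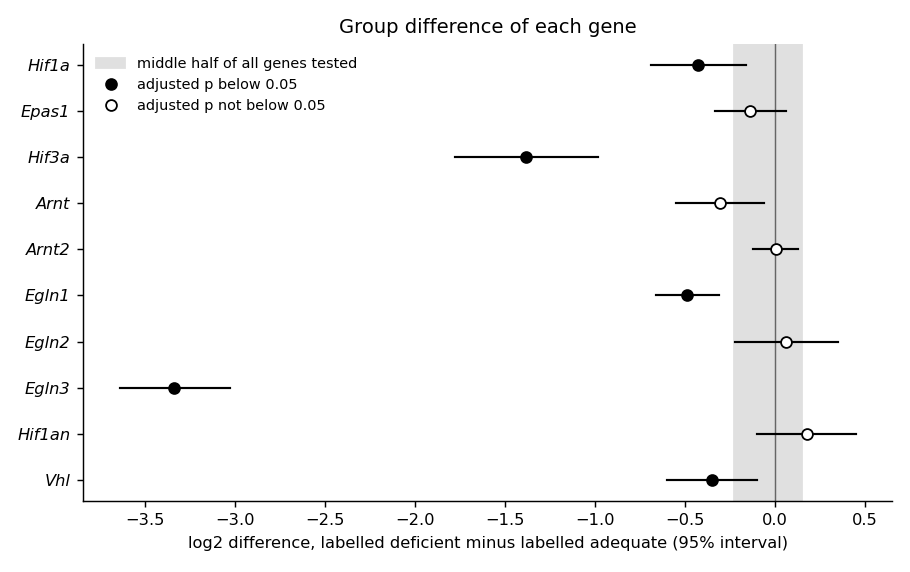
Log2 difference of each gene, labelled deficient minus labelled adequate (x axis), with its 95% interval from limma; filled points passed an adjusted p of 0.05, open points did not, and the grey band spans the lower to the upper quartile of all genes tested (-0.22 to 0.15). Egln3 lies near -3.34 and Hif3a near -1.38, and the other 8 genes lie between -0.49 and 0.18.

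Whether related members differed by unequal amounts was tested on the difference of log2 signals within each lung, for 4 pairs chosen with earlier results of these data known. Egln3 minus Egln1 was -0.70, -0.62, -0.90 and -0.91 in deficient 1 to 4, against 1.98, 1.73, 2.34 and 2.22 in adequate 1 to 4. The group difference of Egln3 thus exceeded that of Egln1 toward lower signal, by -2.85 on the log2 scale (exact permutation test, two-sided, p = 0.0286, adjusted p = 0.0381 over the 4 pairs). For Egln3 and Egln2 the same quantity was -3.40 (exact p = 0.0286, adjusted p = 0.0381). For Hif1a and Hif3a it was 0.96, which is a smaller drop of Hif1a (exact p = 0.0286, adjusted p = 0.0381). Hif1a and Epas1 did not pass, at -0.29 (exact p = 0.0571, adjusted p = 0.0571), and without adequate 3 the value was -0.17 (exact p = 0.143, adjusted p = 0.143). Without any 1 lung labelled deficient, the adjusted p of both Egln3 pairs was 0.0571 at an exact p of 0.0286, and the exact p of Hif1a and Hif3a was 0.0571. The smallest p that 4 lungs against 4 allow is 0.0286. The wide separation of Egln3 given above all but fixed that p for its pairs. Because the adjustment runs over the 4 pairs, the pass of Hif1a and Hif3a also rests on the p of both Egln3 pairs. Levels of different genes cannot be compared this way, only their differences between groups.

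HIF dimers bind the core motif ACGTG or GCGTG, and the promoters of the members with the largest or steadiest differences are shown to set these letters beside the values. All 10 genes had a promoter of 300 bases (250 before the start site to 50 after it) in the RefSeq table of build GRCr8. Searched on both strands, 4 of the 10 held either motif (Egln1, Hif1a, Hif3a and Arnt), as did 41.6% of all promoters in the table and 54.3% of those of tested genes. Capitals mark matches, and CACGC is GCGTG on the opposite strand. The sequences below run 5′ to 3′ on the strand of the gene, the minus strand in each case.
Egln3, chr6:77410966-77411265: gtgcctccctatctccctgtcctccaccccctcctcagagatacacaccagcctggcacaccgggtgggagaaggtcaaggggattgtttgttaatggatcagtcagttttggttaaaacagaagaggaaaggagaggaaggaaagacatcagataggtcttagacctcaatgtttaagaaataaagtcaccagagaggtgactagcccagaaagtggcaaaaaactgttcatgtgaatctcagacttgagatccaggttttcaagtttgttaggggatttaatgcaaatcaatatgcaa
Egln1, chr19:69804632-69804931: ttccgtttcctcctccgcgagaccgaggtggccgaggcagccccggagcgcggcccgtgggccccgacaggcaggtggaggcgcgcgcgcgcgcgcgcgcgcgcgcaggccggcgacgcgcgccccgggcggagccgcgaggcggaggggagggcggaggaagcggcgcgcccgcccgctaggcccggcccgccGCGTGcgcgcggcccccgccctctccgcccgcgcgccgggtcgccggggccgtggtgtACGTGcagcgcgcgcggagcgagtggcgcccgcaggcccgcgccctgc
Hif3a, chr1:86877789-86878088: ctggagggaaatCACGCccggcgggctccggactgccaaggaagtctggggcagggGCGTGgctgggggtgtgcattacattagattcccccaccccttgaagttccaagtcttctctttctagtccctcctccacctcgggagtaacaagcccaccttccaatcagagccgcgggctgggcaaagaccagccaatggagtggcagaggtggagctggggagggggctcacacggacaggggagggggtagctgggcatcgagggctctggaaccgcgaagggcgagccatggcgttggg
The window of Egln3, the gene with the largest difference, held no match, which says only that these letters are not in this window. Egln1 held GCGTG from base -56 and ACGTG from base 3, counted from the start site. Hif3a held its matches at bases -238 and -194, the first on the opposite strand, and a second start listed for the gene held none. Hif1a held 3 matches to ACGTG, 2 of them the overlapping strands of 1 CACGTG, a sequence also bound by other basic helix-loop-helix factors and present in 6.42% of all promoters.

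The order of Egln3 among the lungs labelled adequate was also that of the summed neutrophil signal. Adequate 3 was highest (Egln3 11.22, neutrophil genes 15.04), followed by adequate 4 (11.06 and 14.77), adequate 1 (10.89 and 14.20) and adequate 2 (10.71 and 14.11). Of the 14 single markers, only Mmp8 shared this order, and Mmp8 is also among the genes picked below for high r with Egln3. Cd177 made up more of the sum in adequate 3 and 4 than any other marker. In adequate 1 to 4 Mmp8 read 10.47, 10.24, 10.97 and 10.70, which is the same order. S100a9 read 13.04, 12.83, 12.70 and 12.36, and Cd177 12.09, 12.50, 14.33 and 14.11, which are other orders. In the lungs labelled deficient the highest Egln3 was in deficient 2 and the highest summed neutrophil signal in deficient 1. Of the 14 neutrophil markers 11 were tested and 9 were lower in labelled deficient, by 1.87-fold to 44.1-fold. The largest were Cd177, a neutrophil surface protein gene, at 44.1-fold and S100a9, a calprotectin subunit gene, at 22.5-fold. The 2 tested markers not called were Ngp (log2 difference -0.02, adjusted p = 0.964) and Elane (-0.27, adjusted p = 0.0951). The part of neutrophils in the difference of Egln3 was not tested. Y-linked signal followed another order, highest in adequate 1 and 2.

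**Figure D3:**
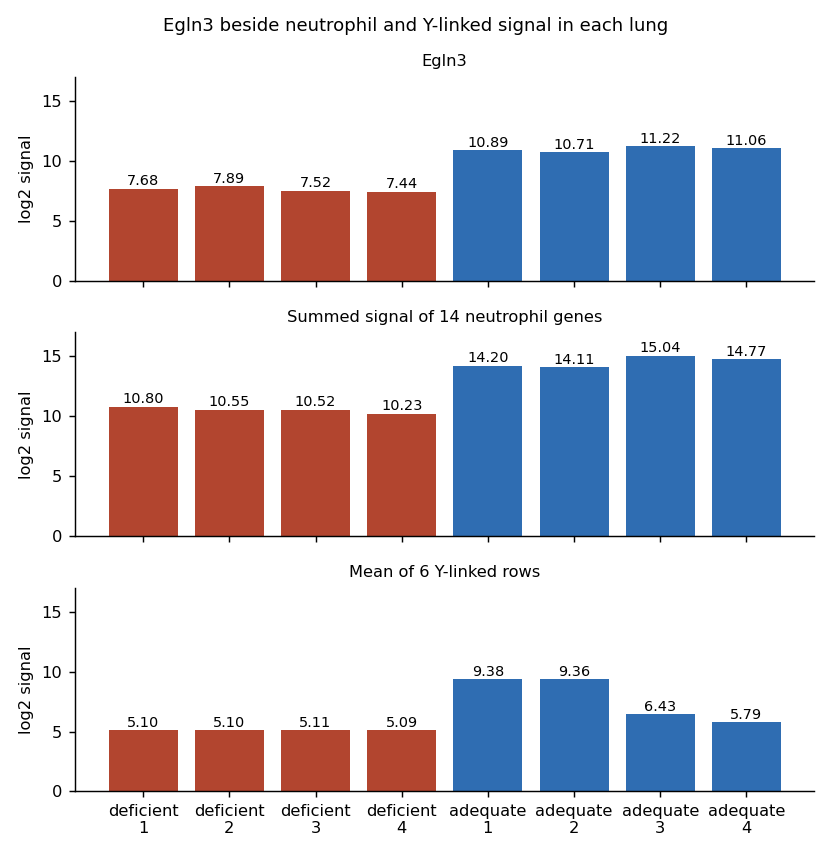
Log2 signal (y axis, from 0) in each of the 8 lungs, labelled deficient in red on the left and labelled adequate in blue on the right, for Egln3 (top), the summed signal of 14 neutrophil genes (middle) and the mean of 6 Y-linked rows (bottom). In the lungs labelled adequate Egln3 and the summed neutrophil signal run in the same order and the Y-linked signal does not. Of the 14 single neutrophil genes, only Mmp8 runs in that order.

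The genes with the profiles most like each called member over the 8 arrays were ranked by Pearson r, given as a description because the shared group difference sets much of it. For Egln3 they were Prkag2, a regulatory subunit of the energy-sensing kinase AMPK (r = 0.999), Flot2, a membrane scaffold gene (r = 0.998), and Mmp8, the neutrophil collagenase gene (r = 0.998). With group means removed, r was 0.955, 0.929 and 0.866 over the same 8 arrays, on which these genes had been picked for high r. Mmp8 differed by -3.79 on the log2 scale, more than Egln3, and Prkag2 by only -0.36. For Egln1 the leading genes were Cbx6, a polycomb protein gene, Sntb2, a syntrophin gene, and Pgpep1, a peptidase gene, with r of 0.993 to 0.995. For Hif3a they were Tnfrsf14, a tumour necrosis factor receptor family gene, Eps8l1 and Enkd1 (r = 0.984 to 0.995). Hif1a ran closest to Wdr19, Spata18 and Dnai3 (r = 0.987 to 0.993); Wdr19 encodes a ciliary transport protein and Dnai3 a dynein intermediate chain. Vhl ran closest to Cd37, Wrap53 and Cdin1 (r = 0.984 to 0.990). As many as 304 genes had r above 0.95 with Egln3, so the order within each list carries little weight.

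Targets of HIF were followed as a list of 55 genes from textbook knowledge, of which 53 were measured and 52 tested. Of these, 21 were lower in labelled deficient and 0 higher, against 13.7% and 8.21% of all genes tested, and the median log2 difference was -0.33 against -0.02. Epo, the erythropoietin gene, lay below the level filter and was not tested. The number lower stayed between 15 and 21 with 1 lung left out and was 16 with the Y-linked covariate. After quantile normalization or cyclic loess 17 and 18 were lower and 1 was higher, and with arrays centred on their medians 17 were lower and 3 higher. Neutrophil, macrophage and monocyte, lung epithelial and Y-linked signal also differed between the groups, as given above. Their part in the differences of the targets was not tested.

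Genes of glucose and lactate transport and of glycogen synthesis were among those with the smallest p. Slc16a3, the lactate exporter MCT4, had log2 signals of 6.43, 6.41, 6.43 and 6.43 in deficient 1 to 4, against 7.75, 8.15, 8.06 and 8.07 in adequate 1 to 4. The lungs labelled deficient were thus nearly identical and all lower, by 3.00-fold (log2 difference -1.58, SE 0.09, adjusted p = 1.56e-05). The glucose transporter genes Slc2a3 and Slc2a1 were 2.14-fold and 2.03-fold lower (adjusted p = 7.42e-05 and 0.00052). Gys1, glycogen synthase, read 9.80, 9.65, 9.69 and 9.26 in deficient 1 to 4, against 11.45, 11.34, 11.32 and 11.42 in adequate 1 to 4, a 3.44-fold difference (adjusted p = 4.07e-05).

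Ndrg1, a stress-responsive gene strongly induced by hypoxia, had the largest difference of the list. Its log2 signals were 11.14, 10.89, 11.03 and 10.70 in deficient 1 to 4, against 13.37, 13.35, 12.81 and 13.08 in adequate 1 to 4. It was 4.64-fold lower in labelled deficient (log2 difference -2.21, SE 0.15, adjusted p = 3.84e-05), with no overlap. P4ha1, a collagen prolyl hydroxylase subunit, was 1.92-fold lower, the oxidoreductase gene Ero1a 2.18-fold lower and the carbonic anhydrase gene Car12 2.49-fold lower. These 3 had adjusted p of 0.00071, 0.000964 and 0.00132.

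The 31 tested targets that did not pass had log2 differences between -0.45 and 0.32, 22 below 0 and 9 above. Some well-known members, named here after their values were seen, lay on both sides of the threshold. Vegfa, the vascular growth factor gene, passed (1.44-fold lower, adjusted p = 0.0372) and so did Adm, the adrenomedullin gene (1.66-fold lower, adjusted p = 0.0316). Pdk1, which diverts pyruvate from mitochondria, gave a log2 difference of 0.00 (SE 0.10, adjusted p = 0.987). Neither did Pgk1, a glycolytic kinase gene (-0.12, SE 0.14, adjusted p = 0.551), nor Bnip3, a mitophagy gene (-0.17, SE 0.15, adjusted p = 0.441), pass.

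**Figure D4:**
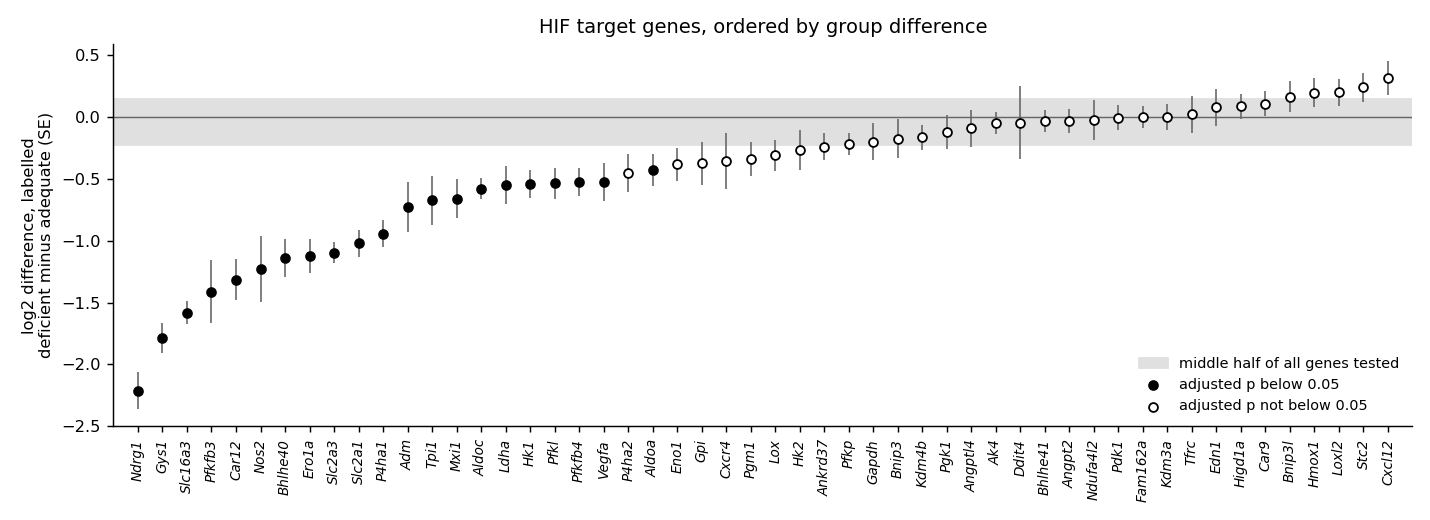
Log2 difference with SE (y axis) of the 52 HIF target genes tested, ordered along the x axis from the largest drop in labelled deficient; filled points passed an adjusted p of 0.05, open points did not, and the grey band spans the lower to the upper quartile of all genes tested. The 21 filled points all lie below 0, from Ndrg1 at -2.21 to Aldoa at -0.43.

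Of 18 tested partners of the ligase and other factors acting on HIF stability, 1 was higher in labelled deficient and 0 lower, against 8.21% and 13.7% of all genes tested: Mcm7, a replication helicase subunit that can bind HIF-1 alpha (1.36-fold, adjusted p = 0.0216). Siah2, an E3 ligase for EGLN proteins (log2 difference 0.33, adjusted p = 0.069), the ubiquitin-conjugating enzyme gene Ube2d1 (-0.37, adjusted p = 0.07) and Os9 (-0.20, adjusted p = 0.0871) did not pass. The list median was 0.05. In 4 of the 8 fits that left out 1 lung (deficient 1, 2 or 3, or adequate 1) the list held 0 calls, and without deficient 4 it held 4.

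Coactivators and competitors held 2 genes lower and 1 higher among 14 tested, a share close to the 13.7% lower and 8.21% higher of all genes tested. The list median was -0.18 with 13 of 14 below 0, against -0.02 and 52.8% below 0 over all genes. With arrays centred on their medians the list median was -0.07. Cited2, which competes with HIF alpha for p300 and CBP and is itself induced by HIF, read 7.72, 7.80, 7.79 and 7.77 in deficient 1 to 4, against 9.22, 8.79, 9.69 and 8.98 in adequate 1 to 4. It was 2.64-fold lower in labelled deficient (log2 difference -1.40, SE 0.17, adjusted p = 0.000878), and its spread lay almost wholly in labelled adequate, with SDs of 0.03 and 0.39. Ncoa1, a steroid receptor coactivator gene, was 1.41-fold lower (adjusted p = 0.00955) and the acetyltransferase gene Kat5 1.37-fold higher (adjusted p = 0.019). Ncoa2 did not pass (-0.28, adjusted p = 0.0785).

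Genes that share the PAS domain with HIF had 3 of 8 tested members lower and 1 higher, against 13.7% and 8.21% of all genes tested. Their median log2 difference was 0.05. After quantile normalization, cyclic loess or centring, 2 were lower and 1 higher. Ahr, the dioxin receptor that also pairs with ARNT, was 1.63-fold lower in labelled deficient (log2 difference -0.71, SE 0.14, adjusted p = 0.00821). The clock genes Per1 and Npas2 were 1.77-fold and 1.38-fold lower (adjusted p = 0.00332 and 0.022), and Per3 was 1.46-fold higher (adjusted p = 0.00615). The hour of harvest is not given in the sources used here.

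Other oxygenases that use 2-oxoglutarate, the co-substrate of the EGLN enzymes, had 7 of 43 tested members lower and 2 higher, near the 13.7% and 8.21% of all genes tested, with a median log2 difference of -0.12. The balance depended on the scaling: 5 were lower and 5 higher after quantile normalization, and 4 lower and 7 higher with arrays centred on their medians (median -0.01). Phyh, the peroxisomal phytanoyl-CoA hydroxylase gene, was 1.79-fold lower in labelled deficient (adjusted p = 0.00216). The histone demethylase genes Kdm5b and Phf8 were 1.49-fold and 1.46-fold lower (adjusted p = 0.00657 and 0.00741), and Kdm5a was 1.42-fold higher (adjusted p = 0.0117). None of the 9 called reached 2-fold. The largest was Plod1, a lysyl hydroxylase gene, at 1.88-fold lower, named after its value was seen. With the replicate block 5 of the list were called.

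Enzymes that make or use 2-oxoglutarate, succinate or fumarate, the last 2 of which inhibit the hydroxylases, had 3 of 18 tested members lower and 0 higher, near the 13.7% lower of all genes tested. Idh1, cytosolic isocitrate dehydrogenase, was 1.46-fold lower in labelled deficient, the mitochondrial carrier gene Slc25a11 1.34-fold and Ogdh, the 2-oxoglutarate dehydrogenase subunit gene, 1.27-fold lower, with adjusted p of 0.042, 0.0447 and 0.0446. Idh2 did not pass (-0.35, adjusted p = 0.0801). These calls were narrow: 0 were made without the level filter, after quantile normalization or with arrays centred on their medians.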

How the data were processed

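Whole-lung RNA of 8 newborn rats was measured, 1 array per lung. Per the labels, the deposited log2 signals are the authors' output of Expression Console software from Affymetrix (SST-RMA, summarised to genes); the genome build behind the rows is not given in the sources used here. RMA makes array distributions alike, which can shift small differences. The authors' deposited table adds a signed fold score, from significance analysis of microarrays per its information sheet; 8 further columns, linear versions of the log2 ones, were left aside.

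Of 68842 transcript clusters, 23446 carried 1 symbol, and 22077 of these matched RefSeq by gene identifier. Each gene was represented by its row of highest mean, and genes with a mean under percentile 30 (log2 5.32) were left out. The remaining 15426 entered one linear model per gene in limma 3.58.1 under R 4.3.3 (eBayes with trend, no covariate, two-sided, Benjamini-Hochberg over all genes, threshold 0.05). Folds are 2 to the size of the log2 difference. With 4 arrays a group, their number limits the precision. Within-lung differences were tested with exact permutation tests. The fitting step was tested on simulated data.

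Members, lists and pairs were chosen with earlier results of these data known. Named genes are all members, up to 8 HIF targets and up to 4 of each other list by smallest p, and the 3 most alike genes per called member. Alternatives covered the level filter, the row per gene, the features tested, the normalization, the variance model, Y-linked signal as a covariate, the replicate number as a block, and each lung left out. Numbers were not taken to pair lungs: deviations of same-numbered lungs correlated at -0.353 to 0.044. Protein sequences were not used here.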

Additional observations from a re-analysis of the deposited data

Results flagged for a closer look

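In a group of 4 lungs, a lung was marked when its gap to the nearest other exceeded Dixon's 95% critical share of the group's range, a mark that chance gives to about 1 in 20 groups. Of the 20 groups (10 genes, 2 groups each), 2 were marked. Hif3a read 13.13 in adequate 3, with the other 3 lungs of that group between 13.54 and 13.55. Hif1an read 9.33 in deficient 4, below 9.72 to 9.79 in the other lungs labelled deficient. Without adequate 3 the log2 difference of Hif3a was -1.49 and still passed, and without deficient 4 that of Hif1an was 0.29 and did not pass (adjusted p = 0.0592).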

How the results depend on the processing

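Egln1, Egln3 and Hif3a kept their direction and passed in all 21 alternatives. Epas1 and Hif1an passed in none, Arnt passed with array weights and without deficient 4, and Hif1a and Vhl missed the threshold in 8 and 14. Egln2 was -0.0103 without deficient 2 and 0.1337 without deficient 4, and Arnt2 was -0.0021 after quantile normalization, -0.0168 after cyclic loess, -0.0303 with the Y-linked covariate and -0.0043 to 0.0262 without 1 lung; for these reversals the cause was not tested. Replicate numbers did not pair the lungs, and the fit with the replicate block called 1757 of all genes, 3 members, 0 of the ligase list, 1 coactivator, 5 other oxygenases and 0 of the 2-oxoglutarate enzymes, against 3381, 5, 1, 3, 9 and 3 without it. With the Y-linked covariate these were 2059 genes, 3 members, 0 of the ligase list, 1 coactivator and 1 of the 2-oxoglutarate enzymes. Over all 38318 transcript clusters tested 6745 were called, 2515 lower and 4230 higher, which turns the balance of 2114 lower and 1267 higher among genes, and 0 of the 2-oxoglutarate enzymes, as without the level filter. The ligase list held 2 calls after quantile normalization, 2 after cyclic loess, 3 with centred arrays and 3 with array weights, and the 2-oxoglutarate enzymes held 0, 1 and 0 under the first 3 of these. Centred arrays left 3 members called and moved the median of all genes to 0.088, against -0.018. The 2114 lower and 1267 higher genes became 1634 and 1892 after quantile normalization and 1410 and 2788 with centred arrays. Leaving out 1 lung gave 2178 to 3130 genes (2178 without deficient 2), 3 to 5 members, 0 to 4 of the ligase list and 2 to 4 coactivators. It also gave 15 to 22 HIF targets, 3 to 4 PAS relatives, 7 to 10 other oxygenases and 0 to 2 of the 2-oxoglutarate enzymes. Of the within-lung differences, Egln3 minus Egln1 then ranged from -2.96 to -2.76, Egln3 minus Egln2 from -3.55 to -3.26 and Hif1a minus Hif3a from 0.75 to 1.14, each past the threshold in the 4 fits without a lung labelled adequate and missing it in the 4 without one labelled deficient. Both Egln3 pairs had an exact p of 0.0286 in all 8 and missed only through the adjustment over the 4 pairs. Hif1a minus Epas1 ranged from -0.34 to -0.17 and passed in none. Arnt2 read low, at 5.84 to 5.94 over a background of 3.37 to 3.54, and whether this limits its result was not tested.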
